A study of Mus musculus with 7 samples.

Results

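The 10 genes described here encode transcription factors that set the fate of CD8 T cells: Tcf7, Lef1, Id3 and Bach2, which are tied to naive, stem-like and memory cells, Tbx21, Eomes, Id2 and Prdm1, which are tied to effector and memory differentiation, and Tox and Tox2, which are tied to exhaustion. They were chosen by gene symbol and by role, and all 10 of the 10 had a row among the 55357 genes of the expression table. RNA-seq was made from CD8 T cells sorted as live CD45+ CD8+ cells from subcutaneous MCA205 tumours (a transplantable mouse fibrosarcoma) on day 14. The 4 ENT1KO libraries (replicates 11, 12, 14 and 15) came from Slc29a1-/- recipients and the 3 WT libraries (replicates 1, 2 and 3) from C57Bl/6 recipients. The tumour cells were the same line in both groups, the labels describe the recipient as Slc29a1-/- with no Cre or promoter named, and they do not say whether each library is 1 mouse or a pool. The p-values therefore measure the spread between these libraries, which may be in part technical.

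CD8 T cells in a tumour run along a course on which these factors act against or beside each other. TCF1 (from Tcf7) and LEF1 are HMG-box factors of the same family that keep T cells in a naive or stem-like state, and BACH2 restrains effector genes. T-bet (from Tbx21) and EOMES are T-box factors that drive effector and memory programmes. ID2 and ID3 lack a DNA-binding region and block E proteins, with ID2 used more by effector cells and ID3 more by memory precursors. BLIMP1 (from Prdm1) is a repressor of terminally differentiated cells, and TOX and TOX2 are HMG-box factors of cells under lasting antigen exposure.

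Levels are given in TPM, a level per transcript length with one total for all libraries, in the order of the replicates named above. Differences are given as ENT1KO minus WT on a log2 scale, of TPM with 1 added, with the standard error (SE); low genes change by less on it than in TPM itself. A gene was said to rise or fall where limma-trend gave an adjusted p under 0.05 over the 13798 genes that reached 1 TPM in 3 or more libraries. By this test 50.6% of all tested genes changed, 27.5% being higher and 23.1% lower in ENT1KO, so a single call is common in this comparison. These were 3800 rises and 3182 falls, while normalized counts in place of TPM gave 2894 rises and 3859 falls and put the median gene at 0, where TPM put it at 0.15. Slc29a1, the gene that encodes ENT1, had 13.2 to 17.6 TPM in the 4 ENT1KO libraries, against 49.7 to 58.9 TPM in the 3 WT libraries. The 14 genes of a CD8 T cell identity list all rose, with a summed level of 9105 to 11212 TPM in ENT1KO and 2857 to 6871 TPM in WT. Of a fibroblast and tumour list, 18 of 19 tested genes fell, and without Thy1 and Vim, which T cells also express and which were set aside after their values were seen, its summed level was 7.27 to 849.7 TPM in ENT1KO and 4009 to 7740.2 TPM in WT. Macrophage and monocyte genes fell in 14 of 15 cases, with summed levels of 303 to 1383 TPM in ENT1KO and 3627 to 5429 TPM in WT. In such bulk libraries fewer cells of a type and less RNA per cell cannot be told apart. Neither marker list overlapped between genotypes, so its part in the results below and that of genotype cannot be told apart.

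Of the 9 transcription factor genes that could be tested, 6 rose in ENT1KO (Tcf7, Lef1, Bach2, Tbx21, Eomes and Id2), 1 fell (Id3) and 2 did not pass (Tox and Prdm1). Tox2 was below the level needed for the test. The median log2 difference of the 9 was 0.90, against 0.15 over all tested genes, and 1.09 for Cd3e, the T cell receptor subunit used as a measure of T cell RNA. In the authors' deposited table the same 6 genes were higher and the same 1 lower at an adjusted p under 0.05, where 16.5% of all genes were higher and 25.8% lower. With the summed fibroblast and tumour list as a covariate, limma called 0 of the 9. All 9 log2 differences changed sign, for example to -1.003 (SE 0.65) for Tcf7 and 0.00457 (SE 0.96) for Id3. This covariate, the log2 of the summed list with Thy1 and Vim included, did not overlap between genotypes either. In ENT1KO the sum was mostly Thy1 and Vim, at 2587 to 3959 TPM with them and 7.27 to 849.7 TPM without. Taken as a ratio to Cd3e in each library, none of the 6 stood above WT in all libraries.

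**Figure D1:**
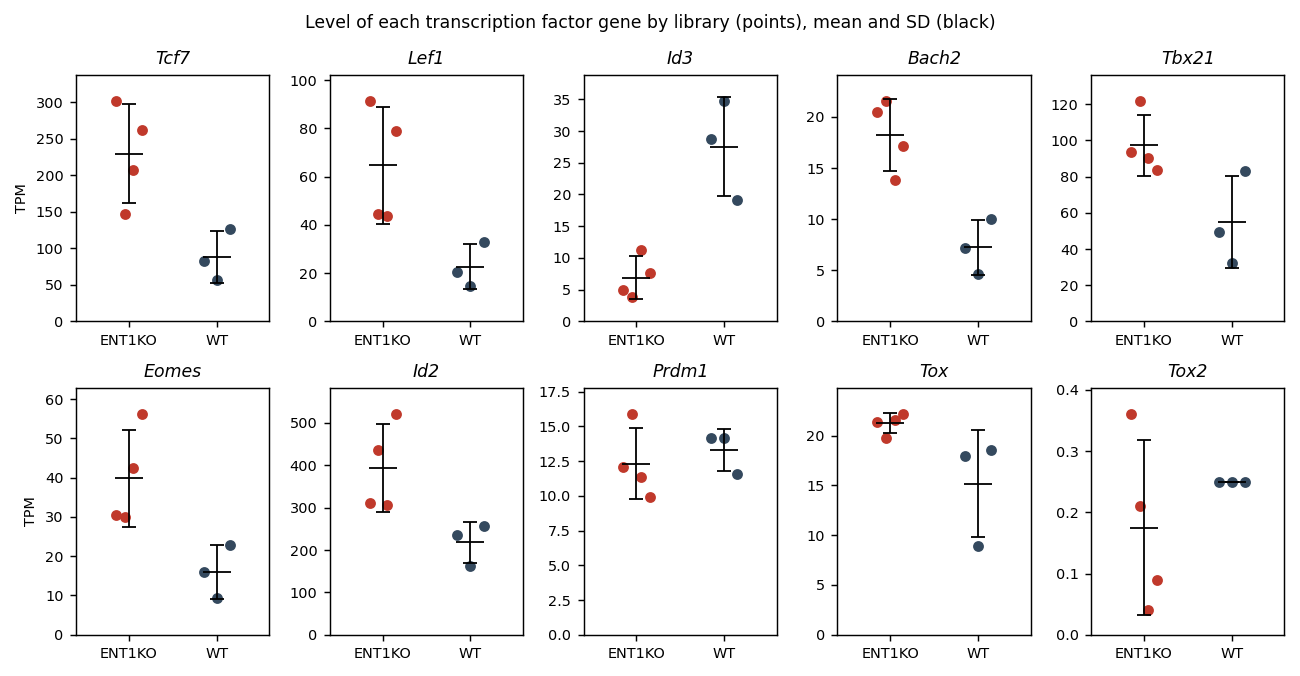
TPM of the 10 genes in each library, with ENT1KO on the left and WT on the right of each panel; points are libraries, black bars the mean and SD (n = 4 and n = 3). Tcf7, Lef1, Bach2, Tbx21, Eomes, Id2 and Tox do not overlap and are higher in ENT1KO, Id3 is lower with no overlap, and Prdm1 and Tox2 overlap.

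Tcf7 (chromosome 11, 52143198 to 52174158, GRCm39), which encodes TCF1, had 302, 147, 207 and 263 TPM in the ENT1KO libraries, against 82.6, 56.5 and 126 TPM in the WT libraries. All ENT1KO libraries lay above all WT libraries, with ENT1KO replicate 12 the lowest of its group and WT replicate 3 the highest of its own. The means were 229 ± 67.5 TPM in ENT1KO and 88.4 ± 35.2 TPM in WT (SD, n = 4 and n = 3), a log2 difference of 1.39 (SE 0.32, limma adjusted p = 0.00879). Lef1, its family member (chromosome 3, 130904120 to 131018005), had 91.3, 44.7, 43.5 and 78.9 TPM in ENT1KO and 20.6, 14.6 and 32.9 TPM in WT. The groups did not overlap, and replicates 11 and 15 held the high Lef1 values within ENT1KO, as they did for Tcf7. Its log2 difference was 1.47 (SE 0.34, limma adjusted p = 0.0101).

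Bach2 (chromosome 4, 32238804 to 32586108), a repressor of effector genes, had 20.4, 21.6, 13.8 and 17.1 TPM in the ENT1KO libraries, against 7.15, 4.62 and 10 TPM in the WT libraries. The groups did not overlap, and the highest 2 values were those of ENT1KO replicates 11 and 12. Its log2 difference was 1.25 (SE 0.25, limma adjusted p = 0.00471). The rises of Tcf7, Lef1 and Bach2 held without each library in turn, with log2 differences of 1.11 to 1.68, 1.20 to 1.76 and 1.003 to 1.49.

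The 2 inhibitors of E proteins moved in opposite directions. Id3 (chromosome 4, 135870808 to 135873066) had 4.90, 3.85, 11.3 and 7.57 TPM in the ENT1KO libraries, against 28.7, 34.7 and 19.2 TPM in the WT libraries. Each ENT1KO library lay below each WT library, as for 24.9% of all tested genes, with ENT1KO replicate 14 nearest to WT. The means were 6.91 ± 3.33 TPM in ENT1KO and 27.5 ± 7.85 TPM in WT (SD, n = 4 and n = 3), and Id3 fell by 1.91 on the log2 scale (SE 0.34, limma adjusted p = 0.00332). The values rest on 61.4 to 177 normalized counts in ENT1KO libraries and 325 to 658 in WT libraries. Id2 (chromosome 12, 25143798 to 25147139) was the most abundant of the 10 genes, at 311, 436, 307 and 520.3 TPM in ENT1KO and 236, 163 and 256 TPM in WT. The groups did not overlap, and replicates 12 and 15 held the high values within ENT1KO. Its log2 difference was 0.84 (SE 0.23, limma adjusted p = 0.0185), and the call was lost without WT replicate 2, at 0.64 (limma adjusted p = 0.0657).

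The promoter windows of Id2 and Id3 are shown because these genes changed in opposite directions. The sequences are RefSeq's on GRCm38.p6, run from 250 bases before to 50 after the transcript start, and read 5′ to 3′ on the gene's strand. Capitals mark the E-box letters CANNTG, the motif bound by the E proteins that ID2 and ID3 block, searched on both strands (the motif reads the same on each).
Id3 promoter window, GRCm38.p6, chr4:136143572-136143871, strand +: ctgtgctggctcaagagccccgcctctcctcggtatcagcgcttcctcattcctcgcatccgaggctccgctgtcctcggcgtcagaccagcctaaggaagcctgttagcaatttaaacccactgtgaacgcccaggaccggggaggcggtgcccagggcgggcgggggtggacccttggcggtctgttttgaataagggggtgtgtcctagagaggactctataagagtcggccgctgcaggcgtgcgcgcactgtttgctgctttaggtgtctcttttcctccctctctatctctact
Id2 promoter window, GRCm38.p6, chr12:25096043-25096342, strand -: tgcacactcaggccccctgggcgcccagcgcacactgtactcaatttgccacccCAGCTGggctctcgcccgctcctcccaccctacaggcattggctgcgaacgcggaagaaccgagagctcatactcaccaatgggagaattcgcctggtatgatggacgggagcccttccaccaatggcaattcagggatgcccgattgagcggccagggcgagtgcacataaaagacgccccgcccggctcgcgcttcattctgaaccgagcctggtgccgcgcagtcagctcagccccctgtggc
The Id2 window held 1 match and the Id3 window 0, while 72.3% of 32544 RefSeq promoter windows of this length held at least 1. A match describes letters, not a bound site.

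The T-box pair rose together. Tbx21 (chromosome 11, 96988897 to 97006157), which encodes T-bet, had 93.7, 122, 90.3 and 83.4 TPM in the ENT1KO libraries, against 49.55, 32.5 and 82.9 TPM in the WT libraries. The groups met closely, as ENT1KO replicate 15 lay just above WT replicate 3. Its log2 difference was 0.90 (SE 0.29, limma adjusted p = 0.0313). This call was the least firm of the 6: it was lost on normalized counts (0.77, limma adjusted p = 0.0514), with all genes above 0 tested (limma adjusted p = 0.0603), and without ENT1KO replicate 11 or 12 or WT replicate 1 or 2, at 0.58 to 0.91 (limma adjusted p from 0.0636 to 0.0888). Eomes (chromosome 9, 118307280 to 118315200), the T-box factor of memory and exhausted CD8 T cells, had 30.6, 30.0, 42.4 and 56.15 TPM in ENT1KO and 15.9, 9.30 and 23.0 TPM in WT. The groups did not overlap, and ENT1KO replicate 15, the lowest of its group for Tbx21, was the highest for Eomes. Its log2 difference was 1.29 (SE 0.32, limma adjusted p = 0.0116).

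Prdm1 and Tox did not pass the test. Prdm1 (chromosome 10, 44313173 to 44404497), which encodes BLIMP1, had 12.1, 15.9, 11.4 and 9.92 TPM in the ENT1KO libraries, against 14.2, 14.2 and 11.6 TPM in the WT libraries. The groups overlapped, and both the highest and the lowest value were in ENT1KO, in replicates 12 and 15. The log2 difference was -0.12 (SE 0.17, limma adjusted p = 0.578). Tox (chromosome 4, 6686353 to 6991557) had 21.4, 19.8, 21.6 and 22.1 TPM in ENT1KO and 18.0, 8.95 and 18.6 TPM in WT. Each ENT1KO library lay above each WT library, as for 30.3% of all tested genes, but WT replicate 2 stood far below the other WT libraries. The log2 difference was 0.52 (SE 0.23, limma adjusted p = 0.0884), and it passed without WT replicate 3 (0.69, limma adjusted p = 0.0484) and was 0.20 without WT replicate 2.

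Tox2 (chromosome 2, 163045045 to 163166090) was close to undetected. It had 0.36, 0.21, 0.04 and 0.09 TPM in the ENT1KO libraries and 0.25 TPM in each of the 3 WT libraries, from 2.87 to 11.2 normalized counts in ENT1KO and 10.3 to 10.96 in WT. A difference could not be read at this depth. In the authors' deposited table its log2 fold change was -0.68 with a standard error of 0.70 (adjusted p = 0.465).

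The promoter window of Prdm1 is shown because BACH2 is known to repress Prdm1 in lymphocytes and because the ratio of these genes differed between genotypes, as given among the ratios of pairs. Prdm1 itself did not pass the test (log2 difference -0.12), and repression by BACH2 was not tested. Capitals mark the letters TGANTCA, where N is any base, searched on both strands. This pattern is looser than the core shared by BACH and AP-1 factors, TGA(C/G)TCA.
Prdm1 promoter window, GRCm38.p6, chr10:44458699-44458998, strand -: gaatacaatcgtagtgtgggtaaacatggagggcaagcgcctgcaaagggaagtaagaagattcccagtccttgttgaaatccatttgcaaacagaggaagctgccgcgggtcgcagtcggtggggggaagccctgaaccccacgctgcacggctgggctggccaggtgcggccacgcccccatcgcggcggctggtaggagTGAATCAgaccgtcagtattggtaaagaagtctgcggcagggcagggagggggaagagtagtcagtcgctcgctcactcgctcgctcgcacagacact
This window held 1 match, TGAATCA, whose middle base is A, so it is not that core. Of the 32544 windows, 7.79% held at least 1 match to the looser letters. A match describes letters, not a bound site. Promoter windows were found for 9 of the 10 genes.

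Cd3e itself rose in ENT1KO. It had 588, 710.0, 578 and 599.9 TPM in the ENT1KO libraries, against 289.95, 185 and 448 TPM in the WT libraries, a log2 difference of 1.09 (SE 0.26, limma adjusted p = 0.0107). The 10 genes were therefore also set against Cd3e within each library, as TPM per 100 TPM of Cd3e. On this scale none of the 9 tested genes lay above WT in each ENT1KO library, where 0.703% of all tested genes did, and 3 (Id3, Prdm1 and Tox) lay below WT in each, where 56.7% of all tested genes did. The share of genes below WT was thus not larger among the 9 than over all genes. The median log2 difference of the ratio was -0.18 over the 9 genes and -0.92 over the 13023 tested genes above 0 in every library.

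**Figure D2:**
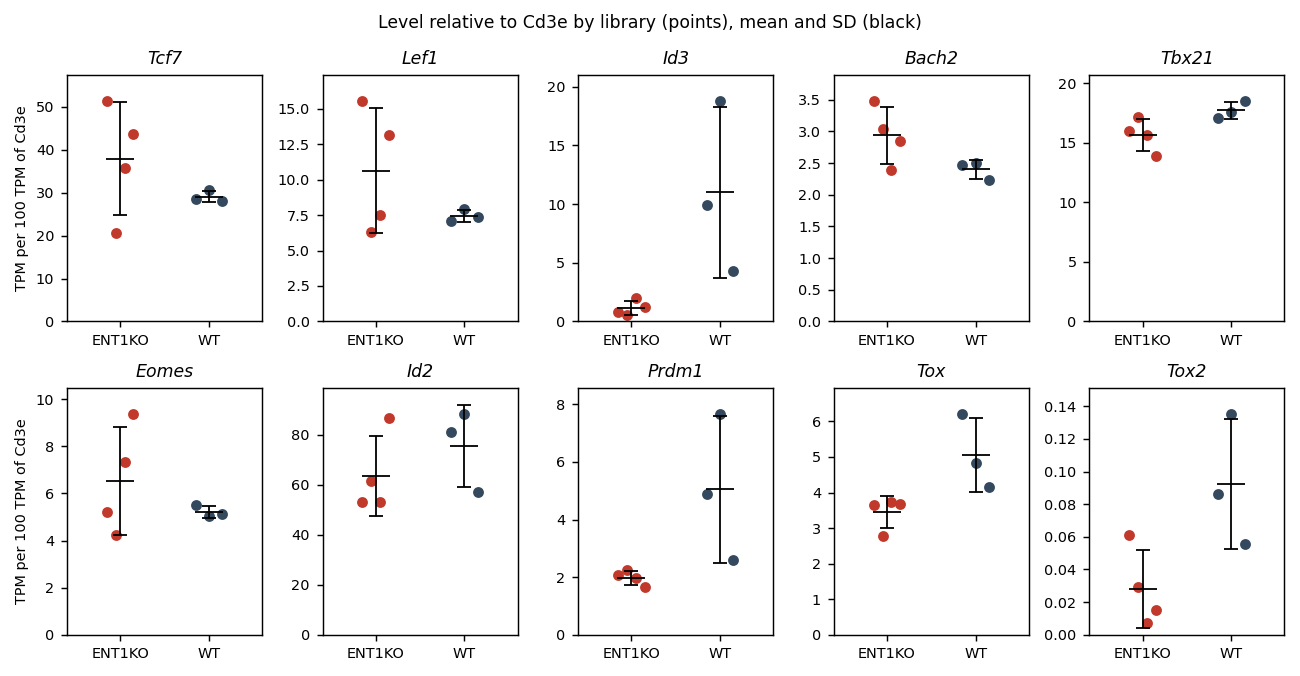
TPM per 100 TPM of Cd3e for the 10 genes, with ENT1KO on the left and WT on the right; points are libraries, black bars the mean and SD (n = 4 and n = 3). Id3, Prdm1 and Tox lie below WT in each ENT1KO library, while for Tcf7, Lef1 and Eomes the WT libraries lie close together inside the wider ENT1KO range.

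Tcf7 relative to Cd3e was 51.4, 20.7, 35.8 and 43.8 in the ENT1KO libraries, against 28.5, 30.6 and 28.2 in the WT libraries. The 3 WT libraries were close to each other, and the ENT1KO libraries lay on both sides of them, with replicate 12 below and the other 3 above. The log2 difference was 0.31 (SE 0.29, exact two-sided permutation p = 0.40 over all 35 assignments of the genotype labels). Lef1 relative to Cd3e was 15.5, 6.30, 7.53 and 13.2 in ENT1KO and 7.11, 7.91 and 7.34 in WT (log2 difference 0.41, SE 0.32, exact permutation p = 0.371). Here replicate 12 lay below WT, replicate 14 inside the WT range, and replicates 11 and 15 above it. Within ENT1KO the libraries with high Tcf7 for their Cd3e, replicates 11 and 15, were also those with high Lef1. Without ENT1KO replicate 12, Tcf7 lay above WT in each remaining ENT1KO library, with a log2 difference of 0.57.

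Bach2 relative to Cd3e was 3.48, 3.04, 2.39 and 2.85 in the ENT1KO libraries and 2.47, 2.50 and 2.23 in the WT libraries, so that replicate 14 alone overlapped WT (log2 difference 0.28, SE 0.12, exact permutation p = 0.114). On normalized counts in place of TPM the groups did not overlap, with a log2 difference of 0.43, and the same held on TPM without ENT1KO replicate 14, at 0.38. Eomes was 5.21, 4.23, 7.35 and 9.36 in ENT1KO and 5.49, 5.03 and 5.13 in WT (log2 difference 0.26, SE 0.26, exact permutation p = 0.429). As for Tcf7, the WT values sat close together inside the range of the ENT1KO values.

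Tbx21 relative to Cd3e was 15.9, 17.1, 15.6 and 13.9 in the ENT1KO libraries and 17.1, 17.6 and 18.5 in the WT libraries. ENT1KO replicate 12 alone overlapped WT, and the log2 difference was -0.18 (SE 0.07, exact permutation p = 0.0857). Against Cd3d, Cd3g or Cd8a in place of Cd3e the Tbx21 ratio was lower in each ENT1KO library, by 0.21 to 0.23 on the log2 scale. The groups overlapped with Trac (-0.26) or the identity list (-0.27) as denominator, and with Cd3e on normalized counts (-0.13). Id2 was 52.9, 61.4, 53.1 and 86.7 in ENT1KO and 81.2, 88.1 and 57.1 in WT, and the groups overlapped (log2 difference -0.25, SE 0.26, exact permutation p = 0.286).

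Id3 had the largest difference relative to Cd3e among the 10 genes. It was 0.834, 0.542, 1.96 and 1.26 in the ENT1KO libraries and 9.91, 18.8 and 4.28 in the WT libraries, a log2 difference of -3.17 (SE 0.73). Prdm1 was 2.06, 2.24, 1.97 and 1.65 in ENT1KO and 4.89, 7.65 and 2.59 in WT, a log2 difference of -1.22 (SE 0.46). Tox was 3.64, 2.79, 3.74 and 3.69 in ENT1KO and 6.20, 4.84 and 4.14 in WT, a log2 difference of -0.54 (SE 0.20). For each of these 3 genes the exact two-sided permutation p was 0.0286, the smallest that this test allows, without adjustment for the 10 genes compared. The WT libraries differed among themselves in all 3, and WT replicate 3 lay nearest to ENT1KO. The same 3 genes stayed below WT in each ENT1KO library with Cd3d, Cd3g, Cd8a, Trac or the mean of the identity list as denominator. Tox2 was 0.0613, 0.0296, 0.00693 and 0.0150 in ENT1KO and 0.0862, 0.135 and 0.0558 in WT, from too few counts to read an order.

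**Figure D3:**
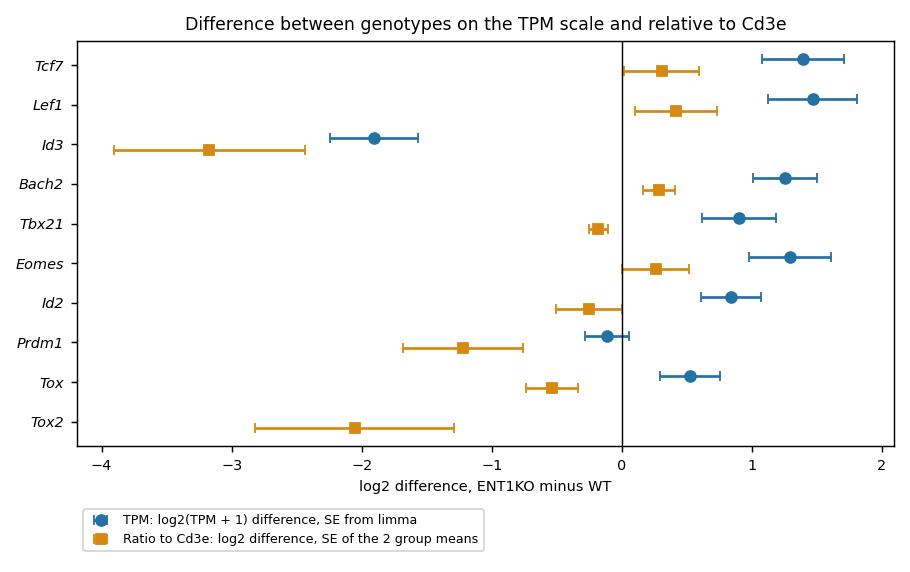
Log2 difference, ENT1KO minus WT, for each gene on the log2(TPM + 1) scale (circles, limma standard error) and as a ratio to Cd3e (squares, standard error of the 2 group means); Tox2 has no circle because it was not tested. Tcf7, Lef1, Bach2, Tbx21, Eomes and Id2 lie between 0.84 and 1.47 in TPM and between -0.25 and 0.41 relative to Cd3e.

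Id3, Prdm1 and Tox are also expressed by cells other than CD8 T cells, so the marker levels are set beside them. Within ENT1KO, replicate 15 had the least marker RNA, with 303 TPM of the macrophage list and 7.27 TPM of the fibroblast and tumour list without Thy1 and Vim, and with Col5a1, Col6a1, Lum and Mmp2 listed at 0. In that library Id3 was 7.57 TPM, Prdm1 9.92 TPM and Tox 22.1 TPM. Replicate 14 had the most, with 1383 and 849.7 TPM of these lists, and its Id3 was the highest of the ENT1KO libraries at 11.3 TPM. Replicate 12, with 660.2 and 174 TPM, had the lowest Id3 and the highest Prdm1 of the group. WT replicate 2 had the most marker RNA of all libraries (5429 and 7740.2 TPM), the highest Id3 (34.7 TPM) and the lowest Tcf7, Lef1, Bach2, Tbx21, Eomes, Id2, Tox and Cd3e.

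**Figure D4:**
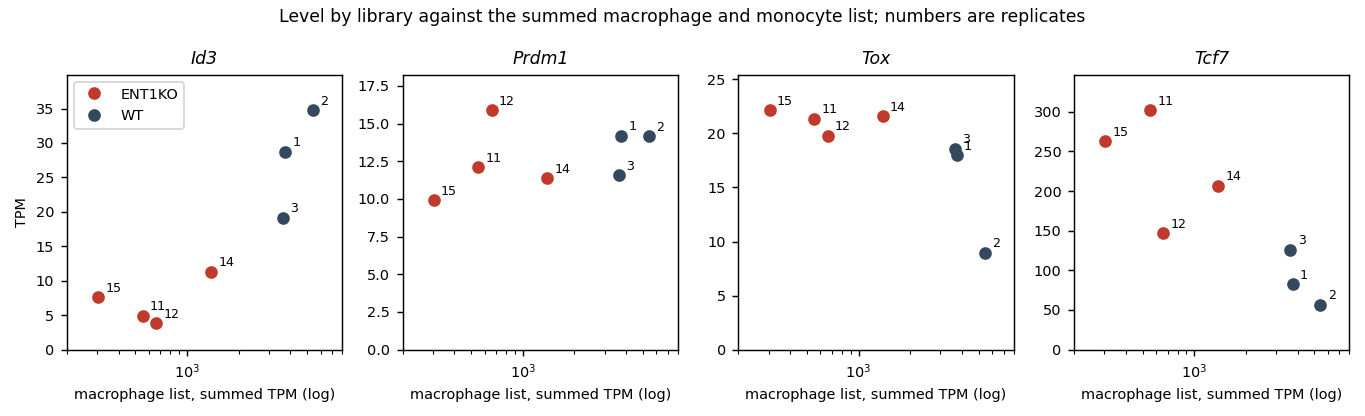
TPM of Id3, Prdm1, Tox and Tcf7 in each library against the summed TPM of the macrophage and monocyte list (log axis); numbers beside the points are replicates. The ENT1KO libraries lie between 303 and 1383 TPM of the list and the WT libraries between 3627 and 5429 TPM, and WT replicate 2 has the highest Id3 and the lowest Tox and Tcf7.

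A factor common to all genes of a library cancels in the ratio of 2 of its genes. RNA from other cells adds to some genes more than to others, so it need not cancel, and its part was not tested. Of 8 pairs of antagonists or relatives, 3 had ratios that did not overlap between genotypes, all higher in ENT1KO. The genes they were divided by (Id3, Prdm1 and Tox) are the 3 that lay below WT relative to Cd3e. The share over all pairs of genes was not computed, so this count has no background to be read against. The ratio of Id2 to Id3 was 63.5, 113, 27.1 and 68.7 in the ENT1KO libraries, against 8.20, 4.70 and 13.3 in the WT libraries. This was a log2 difference of 2.92 (SE 0.61, exact two-sided permutation p = 0.0286, unadjusted). Bach2 over Prdm1 was 1.69, 1.36, 1.22 and 1.72 in ENT1KO and 0.504, 0.326 and 0.863 in WT, so Bach2 exceeded Prdm1 in each ENT1KO library and in no WT library. Its log2 difference was 1.51 (SE 0.42, exact permutation p = 0.0286, unadjusted). Tcf7 over Tox was 14.1, 7.41, 9.58 and 11.9 in ENT1KO and 4.59, 6.32 and 6.79 in WT, a log2 difference of 0.84 (SE 0.27, exact permutation p = 0.0571).

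The other 5 ratios overlapped. Tcf7 over Prdm1 was 25.0, 9.24, 18.2 and 26.5 in the ENT1KO libraries and 5.82, 3.99 and 10.9 in the WT libraries (log2 difference 1.53, SE 0.55, exact permutation p = 0.0857), with replicate 12 the one ENT1KO library inside the WT range. Tbx21 over Eomes was 3.06, 4.06, 2.13 and 1.49 in ENT1KO and 3.11, 3.49 and 3.61 in WT (log2 difference -0.44, SE 0.32, exact permutation p = 0.314). Replicates 11, 14 and 15 of ENT1KO lay below all WT libraries, replicate 11 only just, and replicate 12 lay above them. Tcf7 over Lef1 was 3.30, 3.28, 4.75 and 3.33 in ENT1KO and 4.00, 3.86 and 3.84 in WT (log2 difference -0.11, SE 0.13, exact permutation p = 0.657). Tcf7 over Id2 was 0.97, 0.337, 0.675 and 0.505 in ENT1KO and 0.351, 0.347 and 0.493 in WT (log2 difference 0.56, SE 0.36, exact permutation p = 0.286). Tox over Tox2 overlapped too and rests on the few counts of Tox2. Without ENT1KO replicate 12, 5 pairs were higher in each ENT1KO library, Tcf7 over Prdm1 and Tcf7 over Id2 being added, and Tbx21 over Eomes was lower in each.

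**Figure D5:**
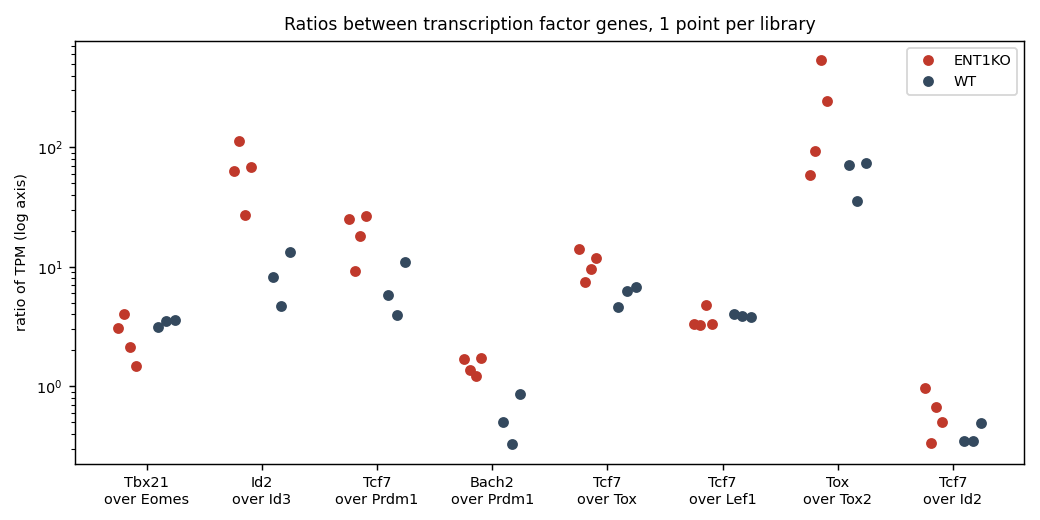
Ratio of the TPM of 2 factors in each library on a log axis, with ENT1KO on the left and WT on the right of each pair; each point is a library. Id2 over Id3, Bach2 over Prdm1 and Tcf7 over Tox do not overlap between genotypes, and the other 5 pairs do.

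The order of mean levels differed between genotypes in the place of Id3, and Bach2 and Prdm1 changed places. In ENT1KO the means ran from Id2 (393 ± 104 TPM) through Tcf7 (229 ± 67.5), Tbx21 (97.3 ± 16.9), Lef1 (64.6 ± 24.2), Eomes (39.8 ± 12.3), Tox (21.2 ± 1.01), Bach2 (18.2 ± 3.49) and Prdm1 (12.3 ± 2.54) to Id3 (6.91 ± 3.33) and Tox2 (0.175 ± 0.142). The ranges of neighbours overlapped for Tbx21 and Lef1, Lef1 and Eomes, Tox and Bach2, Bach2 and Prdm1, and Prdm1 and Id3. In WT the order was Id2 (218 ± 48.7 TPM), Tcf7 (88.4 ± 35.2), Tbx21 (54.98 ± 25.6), Id3 (27.5 ± 7.85), Lef1 (22.7 ± 9.31), Eomes (16.1 ± 6.84), Tox (15.2 ± 5.39), Prdm1 (13.3 ± 1.49), Bach2 (7.26 ± 2.69) and Tox2. There the ranges of all neighbours from Tcf7 to Prdm1 overlapped. By these means Id3 was the fourth gene of WT and the ninth of ENT1KO. Library by library it was the ninth in each ENT1KO library, and in WT the fourth in replicate 1, the third in replicate 2 and the sixth in replicate 3. Tox varied least among the ENT1KO libraries, with a coefficient of variation of 4.74%, against 48.2% for Id3 and 37.5% for Lef1.

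The ENT1KO libraries also differed among themselves in the balance of factors. Replicate 12 had the highest Tbx21 (122 TPM) and Prdm1 (15.9 TPM) and the lowest Tcf7 (147 TPM) and Eomes (30.0 TPM) of the 4. Replicate 11 had the highest Tcf7 and Lef1 (302 and 91.3 TPM), and replicate 15 the highest Eomes and Id2 (56.15 and 520.3 TPM) and the lowest Prdm1 and Tbx21. These are single libraries, with no replicate of such a profile.

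In a list of 40 transcription factors that are partners or family members of the 10, 39 were tested, of which 22 rose, 7 fell and 10 did not pass, with a median log2 difference of 0.69. The 2 with the smallest p were Tcf7l2, a TCF family member (0.547 ± 0.199 TPM in ENT1KO and 3.23 ± 0.872 TPM in WT, log2 difference -1.44, limma adjusted p = 0.00176), and Foxp1, a quiescence factor (62.4 ± 9.72 TPM in ENT1KO and 33.5 ± 4.86 TPM in WT, log2 difference 0.88, limma adjusted p = 0.00291). The next examples were chosen after their values were seen. Stat4, which acts downstream of interleukin-12, rose (141 ± 4.72 TPM in ENT1KO, 61.97 ± 24.5 TPM in WT), as did Irf4, a factor induced by T cell receptor signalling (85.2 ± 23.8 TPM in ENT1KO, 36.8 ± 12.3 TPM in WT). Relative to Cd3e, none of the 39 lay above WT in each ENT1KO library and 12 lay below, where 0.703% and 56.7% of all tested genes did.

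Of the 3 genes for E proteins, which ID2 and ID3 hold back, 1 fell and 2 did not pass. Tcf4 fell, at 6.41, 7.51, 13.55 and 3.39 TPM in the ENT1KO libraries and 52.2, 50.2 and 26.5 TPM in the WT libraries (log2 difference -2.40, limma adjusted p = 0.00294). This gene is also expressed by stromal and plasmacytoid dendritic cells. Within ENT1KO, Tcf4 and Id3 were both highest in replicate 14, but Tcf4 was lowest in replicate 15 and Id3 in replicate 12 (3.85 TPM). Which cells this RNA came from was not tested. Tcf3 did not pass, with 42.8 ± 2.12 TPM in ENT1KO and 39.99 ± 0.995 TPM in WT (limma adjusted p = 0.383), nor did Tcf12, with 65.1 ± 3.70 TPM in ENT1KO and 75.2 ± 9.59 TPM in WT (limma adjusted p = 0.167). Id1, the relative of Id2 and Id3, fell, at 2.16 ± 1.01 TPM in ENT1KO and 4.79 ± 1.10 TPM in WT (limma adjusted p = 0.0251).

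Genes that mark the states these factors control showed no fall in either list. Of 12 genes of stem-like and memory cells 9 rose and 3 did not pass, with a median log2 difference of 1.17. Cd28, a costimulatory receptor, was at 279.6 ± 51.7 TPM in ENT1KO and 107 ± 36.3 TPM in WT, and Tnfsf8, a TNF family ligand, at 21.7 ± 3.88 TPM in ENT1KO and 10.1 ± 2.697 TPM in WT. Slamf6, a receptor of TCF1-positive cells, had 63.4, 21.7, 35.1 and 39.65 TPM in ENT1KO and 16.7, 11.9 and 23.05 TPM in WT, with replicate 11 highest and replicate 12 lowest in ENT1KO, as for Tcf7. Of 16 genes of effector and terminally exhausted cells 8 rose and 8 did not pass, with a median of 0.88; Ctla4, an inhibitory receptor, was at 471 ± 109 TPM in ENT1KO and 180.4 ± 55.96 TPM in WT, and Gzmb, a granzyme, at 1199 ± 183 TPM in ENT1KO and 565 ± 269 TPM in WT. Relative to Cd3e, 1 of the 12 (Cd27) lay above WT in each ENT1KO library and none below, while of the 16 none lay above and 5 below (Pdcd1, Entpd1, Cd101, Cd244a and Cx3cr1). Of all tested genes 0.703% lay above and 56.7% below, so the share below was not larger among the 16 than over all genes. Of 8 genes of cycling cells 2 fell, Ccnb1 (-1.25) and Cdk1 (-1.13), and 6 did not pass. The median log2 difference of the 8 was 0.13, and 23.1% of all tested genes fell, so these 2 falls describe no trend of the list.

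The other lists of marker genes are given with the log2 differences of their 2 genes of smallest p. Their counts stand beside 27.5% of all tested genes that rose and 23.1% that fell. The gate of live CD45+ CD8+ cells is meant to exclude fibroblasts, tumour cells and endothelium, which lack CD45, and most CD4 T cells and B cells, which lack CD8. The fibroblast and tumour list without Thy1 and Vim still summed to 4009 to 7740.2 TPM in WT and 7.27 to 849.7 TPM in ENT1KO. How this RNA came into the libraries was not tested. The identity list had Trbc2 (1.23) and Cd5 (1.49). Relative to Cd3e they were the 2 of its 13 other genes above WT in each ENT1KO library, where 0.703% of all tested genes were. The median log2 difference of the ratio over the 13 was 0.05. The fibroblast list had Pdgfrb (-3.46) and Tagln (-3.06), and the macrophage list Cd68 (-2.19) and Arg1 (-3.92). Dendritic cell genes fell in 5 of 11 cases, with H2-Ab1 (-1.92) and Cd74 (-2.06), and neutrophil and mast cell genes in 7 of 8, with S100a9 (-3.97) and Retnlg (-3.14). B cell genes were mixed, with Cd79b higher (0.85) and Blnk lower (-2.02) among 2 that rose and 1 that fell of 4, as were NK genes, with Klrk1 higher (1.27) and Tyrobp lower (-2.15) among 2 that rose and 4 that fell of 8. Of 7 CD4 and regulatory T cell genes 2 rose, Il2ra (0.72) and Cd40lg (0.65), and 2 fell, Cd4 (-0.73) and Foxp3 (-0.70). These shares are near those over all tested genes. Of 6 endothelial genes 1 rose and 5 fell, with Eng (-1.89) and Emcn (-1.97).

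Genes whose pattern over the 7 libraries was most like that of a factor were sought among 9590 tested protein-coding genes of at least 5 TPM on average. The values are Pearson's r of log2(TPM + 1), as a description, over libraries that share the genotype difference. For Tcf7 the highest were Atp1b3, Tdrp and Pptc7 (r of 0.996, 0.996 and 0.994), for Eomes Ppm1g, Ubr7 and Cenpo (0.997, 0.996 and 0.995) and for Id3 Tnfsf9, Scarb1 and Naaa (0.995, 0.994 and 0.994). Among the factors themselves, Tcf7 and Lef1 were most alike (r = 0.98) and Id3 and Bach2 most opposed (r = -0.98).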

How the data were processed

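RNA-seq of 7 libraries was analysed, 4 ENT1KO and 3 WT, grouped by sample title; 75 ng of RNA went into poly(A)-selected libraries, per the labels' protocols. The authors deposited TPM for 55357 genes. Their second table gives normalized counts, a signal the authors made by dividing counts by 1 size factor per library (from the values). It also gives, per the file headers, log2 fold changes, their standard errors, group means in log2, a test statistic (a score) and p-values, raw and adjusted. Named in the submitters' processing notes, without roles, are the build GRCm39 and the tools RSEM, STAR 2.7.1a, DESeq, DESeq2 1.30.1, and Trimmomatic 0.35 and 0.38. No source used here gives the annotation release. Summed normalized counts were 18306306 to 20167206 per library. Values in each of these columns were whole multiples of the smallest one (100% within 0.01), but for WT replicates 1 and 3 that step was too near 1 to prove whole reads, so no count test or count interval was used.

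The 13798 genes that reached 1 TPM in 3 or more libraries were fitted by genotype alone on log2(TPM + 1), using limma-trend with robust moderation, and p-values were adjusted by Benjamini-Hochberg (R 4.3.3, limma 3.58.1). The fit was checked on simulated data. Ratios to Cd3e and between genes were compared as log2 ratios, with no pseudocount, by exact two-sided permutation tests of the absolute difference in means over all 35 assignments of the labels (smallest p 0.0286, scipy 1.17.1), unadjusted; groups were also said not to overlap where all libraries of one lay above all of the other. The standard error of a ratio difference is that of 2 group means. Promoters are RefSeq's on GRCm38.p6, coordinates of genes those of the deposited table on GRCm39. The rule for names took all 10 genes, Slc29a1 and Cd3e, the 2 genes of smallest p in each other list, and the 3 genes most alike in pattern to Tcf7, Eomes and Id3; others are examples. The genes, pairs and lists were chosen with earlier results of these data known. Alternatives were other pseudocounts, filters, scalings, weights and denominators, a marker covariate, and leaving out each library.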

Additional observations from a re-analysis of the deposited data

Results flagged for a closer look

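Among the 28 sets of 4 ENT1KO values searched for a library far from the others by Dixon's test (levels, ratios to Cd3e and ratios between factors), 2 were found. Chance gives about 1 in 20 sets, so 2 of 28 is not clearly more than chance, and the sets share libraries and genes. Tox relative to Cd3e was 2.79 TPM per 100 TPM in ENT1KO replicate 12, against 3.64 to 3.74 in the other ENT1KO libraries, and the library also had the highest Cd3e (710.0 TPM). Tcf7 over Lef1 was 4.75 in ENT1KO replicate 14, against 3.28 to 3.33 in the other ENT1KO libraries and 3.84 to 4.00 in WT; that library had the most macrophage list RNA of the ENT1KO group (1383 TPM), whose part in the value was not tested.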

How the results depend on the processing

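The call of Id3 as lower and of Tcf7, Lef1, Bach2 and Eomes as higher in ENT1KO held under all alternatives run except the marker covariate. A further alternative took the summed fibroblast and tumour list as a covariate. It did not overlap between genotypes and includes Thy1 and Vim, which made up most of it in ENT1KO. With it limma called 0 of all genes, 0 higher and 0 lower (274 at an unadjusted p under 0.05), and 0 of the 9 tested factors in either direction. The log2 differences then changed sign, to -1.003 for Tcf7, -1.52 for Lef1, 0.00457 for Id3, -0.43 for Bach2, -0.49 for Tbx21, -0.066 for Eomes, -0.18 for Id2, 0.38 for Prdm1 and -0.75 for Tox. Their SE was 0.41 to 1.05, and the cause was not tested. Normalized counts in place of TPM gave 2894 rises and 3859 falls, so that 42.9% of calls were rises where TPM gave 54.4%, and put the median gene at 0 where TPM put it at 0.15. Without 1 library at a time, 4840 to 6853 genes were called, 2315 to 3748 higher (the lowest without WT replicate 2) and 2525 to 3145 lower, and of the factors 4 to 7 were higher and 1 lower. Relative to Cd3e, 0 factors lay above and 3 below WT in each ENT1KO library. The number below was 5 with Cd3d, 5 with Cd8a as denominator and 5 with a pseudocount of 1, where Tbx21 and Tox2 were added, and 1 lay above on normalized counts (Bach2). Without 1 library, 0 to 1 lay above and 3 to 4 below. Of the ratios between factors, 3 to 5 were higher and 0 to 1 lower in each ENT1KO library without 1 library, with 5 and 1 without ENT1KO replicate 12, and with Tcf7 over Lef1 the 1 lower without ENT1KO replicate 14. No paired analysis was possible because the genotypes share no replicate numbers. Tox2 is limited by its few counts. Leaving out 1 library changed the call of Id2 (WT replicate 2) and of Tox (WT replicate 3). The call of Tbx21 was lost without any of ENT1KO replicates 11 and 12 and WT replicates 1 and 2. It was also lost on normalized counts and with all genes above 0 tested.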
